A study of Mus musculus with 2 samples.

Results

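The genes described here encode the enzymes and carriers that take up glucose, split it to pyruvate, exchange pyruvate with lactate and admit pyruvate to the mitochondrion. They comprise 38 genes of 32932 gene names on the array (lincRNA loci not counted) and were chosen by name, as every non-control probe that carries 1 of those names. All 38 names were found, with 91 probes, of which 83 were measured on both arrays. A probe counted as measured where at least a 0.5 share of its spots was well above background on each array. These probes gave a value for 37 genes, out of 18662 measured genes in all. Pklr, the liver and red cell pyruvate kinase, was not well above background on either array and has no fold.

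The samples were KO-Linc1548 46C cells, labelled as a knockout of a long intergenic non-coding RNA, and WT 46C cells, with 1 array each. 46C is a line of mouse embryonic stem cells with GFP inserted at Sox1, a neural progenitor gene. Both cultures were at day 5 of neural differentiation re-aggregated in dishes of low cell adhesion, in a medium with 8% serum replacement and 1 mmol/L sodium pyruvate. The labels used here do not say how the knockout was made, whether it is 1 clone, or how many cultures were pooled, and no probe carries the name Linc1548, so the knockout was not checked on these arrays. With 1 array per group there is no replicate check, no test and no p-value. A difference is the log2 signal of the KO array minus that of the WT array, after each array was centred on its 75th percentile, and it was read against fixed limits of 2-fold and 1.5-fold. Signals are scaled to a common 75th percentile of 751, and are compared between arrays, not between probes; the signals of a marker list are summed within each array.

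Glycolysis turns glucose into pyruvate in the cytosol. Hexokinases, phosphofructokinases and pyruvate kinases are its control points. Pyruvate then either becomes lactate through lactate dehydrogenase or enters mitochondria through a carrier and is oxidised by the pyruvate dehydrogenase complex, which the PDK kinases switch off. Many of these steps are served by isoenzymes with different tissue patterns, and pluripotent stem cells are known for a high rate of glycolysis. Several of the genes are known targets of hypoxia-inducible factor.

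The probes of 4 genes with large differences are shown first, because their genomic span exceeds their 60 bases. Each therefore reads across an intron, from spliced RNA. They are written in full, 5′ to 3′, in lower case, with no part singled out. Their mm9 positions are chr6:122681586-122682419 for Slc2a3, chr13:6581718-6583872 for Pfkp and chr6:142444206-142447028 for Ldhb, all on the minus strand, and chr2:71721635-71721929 on the plus strand for Pdk1.
Slc2a3: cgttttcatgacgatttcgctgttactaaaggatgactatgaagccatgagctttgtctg
Pfkp: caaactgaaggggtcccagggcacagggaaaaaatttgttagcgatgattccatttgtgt
Ldhb: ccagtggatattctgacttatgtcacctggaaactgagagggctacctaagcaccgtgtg
Pdk1: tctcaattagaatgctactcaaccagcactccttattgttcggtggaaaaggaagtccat
These probes share little with those of their isoenzymes. Over 18 isoenzyme pairs, the longest run in common between a probe of one gene and a probe of the other was 5 to 11 bases. Probes were compared with probes and not with the transcript of the other isoenzyme. Whether a probe also reads that transcript was therefore not tested.

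Of the 37 measured genes, 9 were at least 2-fold higher in KO cells, where 11.5% of all measured genes were, and 1 was at least 2-fold lower, where 8.8% of all genes were. The genes and limits were chosen with earlier results of these data known, so these shares stand beside the counts as description only. At the 1.5-fold limit 19 were higher, against 21.7% of all genes, and 1 was lower, against 16.7%. The median log2 difference of the 37 genes was 0.60, beside a median of 0.10 over all measured genes, and 31 of the 37 lay above that median. The genes at least 2-fold higher were Pdk4, Pdk1, Pfkp, Ldhb, Slc2a3, Slc16a3, Aldoa, Pgam2 and Eno1, and Pfkfb4 was the gene that was lower. The first 6 of these stayed at least 2-fold higher in each of the 14 other settings of the processing that measured them (Pdk4 has no value under the stricter filter on dim probes), whereas Aldoa, Pgam2 and Eno1 did not. The values nearest the limit were those of Eno1 (log2 1.00) and Pgam2 (1.03) inside it, and of Hk2 (0.996) and Pfkl (0.98) outside it.

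The choice of scaling sets the sign of the small differences. When spike-in controls set the centre of each array, the median of all genes moved by −0.38, to −0.27, and that of the 37 genes became 0.22. Centring moves every gene by the same amount, so the distance between these medians (0.495) is fixed by construction. It was 0.263 with quantile normalization, 0.24 with loess, and 0.191 with no filter on dim probes, where 20 of 38 genes lay above the all-gene median. With spike-in centring 6 genes were at least 2-fold higher, against 7.52% of all genes, and 1 was at least 2-fold lower, against 15.7%. At 1.5-fold, 11 were higher, against 12.1%, and 4 were lower, against 31.3%. In 13 of the 37 genes the sign differed under at least 1 scaling or background correction: Hk1, Pfkm, Pfkfb1, Pfkfb2, Pfkfb3, Aldoc, Eno2, Slc16a1, Pdk2, Pdk3, Pdha1, Pdhb and Dlat. Each of these turned negative with spike-in centring, and Pfkfb3 and Dlat also in other scalings, so values are given for them without a direction.

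**Figure D1:**
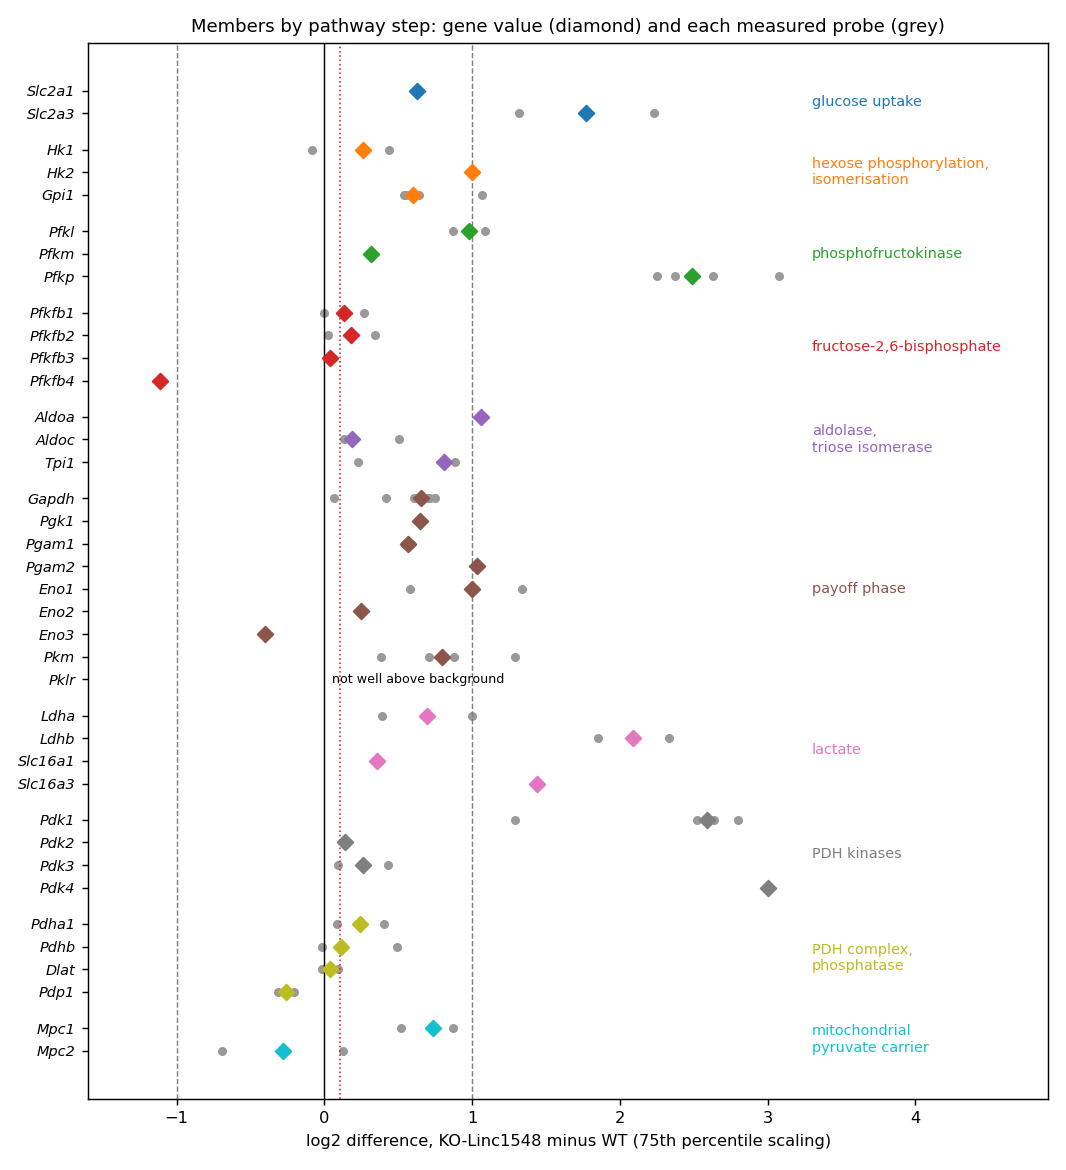
Log2 difference of KO-Linc1548 minus WT for each gene, in pathway order. Diamonds are gene values (the median of the measured probes), grey points are single probes, dashed lines mark 2-fold, and the red dotted line is the median of all measured genes (0.10). Pdk4, Pdk1, Pfkp and Ldhb lie farthest to the right and Pfkfb4 farthest to the left.

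Both glucose transporters were higher in KO cells under every scaling, the neuronal-type carrier more so. Slc2a3, which encodes the high-affinity GLUT3, read 2308 on the KO array and 493.0 on the WT array with the probe printed above, and 84937 against 33976 with a probe nearer the 3′ end of the transcript. Its gene value was a log2 difference of 1.77 (3.42-fold). Slc2a1, which encodes the widely expressed GLUT1, read 51368 in KO cells and 33232 in WT cells with its only probe (chr4:118809864-118809923, mm9), a difference of 0.63. The Slc2a1 difference lay below that of Slc2a3 by −1.15, with the same sign in all settings (−1.6 to −0.69).

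Among the enzymes that trap and isomerise glucose, Hk2 and Gpi1 were higher. Hk2, the inducible hexokinase, read 4610 in KO cells and 2311 in WT cells, just under 2-fold (1.99-fold). Hk1, the constitutive hexokinase, had a gene value of 0.26 (−0.11 with spike-in centring) from probes at 0.26, 0.44 and −0.08. The last of these shares a run of at least 25 bases with probes of other names, among them a ribosomal protein pseudogene, so it may not read Hk1 alone. The Hk2 minus Hk1 contrast was 0.73 and stayed positive throughout (0.56 to 1.08). Gpi1, glucose-6-phosphate isomerase, had 4 probes between 0.54 and 1.07 and a gene value of 0.60 (1.51-fold).

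The phosphofructokinases, which commit sugar to glycolysis, differed between isoenzymes. Pfkp, the platelet form, had all 5 probes between 2.25 and 3.08, and a gene value of 2.49 (5.61-fold). With the probe printed above it read 3360 in KO cells and 541.6 in WT cells, and with its brightest probe 11072 in KO cells and 1973 in WT cells. A further 2 of its probes read only 29.4 and 38.8 in WT cells, close to background. Pfkl, the liver form, had probes at 0.87 and 1.09 (gene value 0.98, 1.97-fold). Pfkm, the muscle form, read 6098 in KO cells and 4900 in WT cells, a difference of 0.32 (−0.06 with spike-in centring). The Pfkp minus Pfkm contrast was 2.17 (1.83 to 2.76 over settings) and the Pfkl minus Pfkm contrast was 0.67 (0.56 to 0.78).

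The PFKFB enzymes make and break fructose-2,6-bisphosphate, the activator of phosphofructokinase, and they did not share the pattern of the kinases they serve. Pfkfb4 read 460.8 in KO cells and 993.1 in WT cells (chr9:108934652-108934711, mm9), a difference of −1.11 (2.16-fold lower). This rests on 1 probe, since its other probe was not well above background on either array; using both gave −0.31, and normexp background correction gave −0.997. Pfkfb3, the form with the highest kinase activity, read 2627 in KO cells and 2525 in WT cells with its brighter probe, a difference of 0.06. Pfkfb1 and Pfkfb2 had gene values of 0.13 and 0.18. All 3 of these were within 1.5-fold in every setting run.

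**Figure D2:**
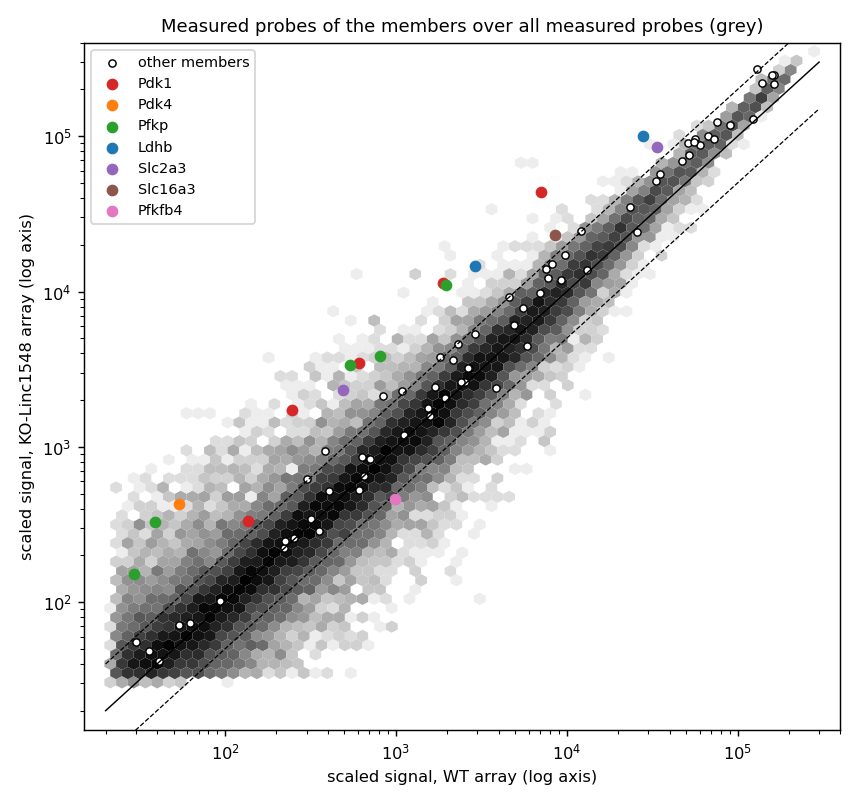
Scaled signal of each measured probe on the KO-Linc1548 array (vertical, log axis) and the WT array (horizontal, log axis), over the density of all measured probes in grey. The solid line is equality and the dashed lines are 2-fold. The probes of Pdk1, Pdk4, Pfkp, Ldhb, Slc2a3 and Slc16a3 lie above the upper dashed line and Pfkfb4 lies below the lower one, over a wide range of signals.

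In the middle of the pathway the ubiquitous enzymes were higher. Aldoa, the main aldolase, read 269608 in KO cells and 129506 in WT cells, a difference of 1.06 that shrank under other scalings, to 0.66 (quantile), 0.67 (loess) and 0.68 (spike-in). Aldoc, the brain aldolase, had a gene value of 0.19 (−0.19 with spike-in centring). One of its probes is printed in 10 spots and read 7849 in KO cells and 5526 in WT cells, a difference of 0.51 with a standard error of 0.02 over spots, which is error within the arrays only. Another, also printed in 10 spots, gave 0.14 with a standard error of 0.03, so the probes of this gene differ by more than spot noise. Tpi1, triosephosphate isomerase, had 3 probes of its RefSeq transcript at 0.80, 0.82 and 0.88, and a dim probe at 0.23 (gene value 0.81, 1.75-fold).

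Of the 8 measured enzymes from Gapdh to Pkm, the steps that yield ATP and NADH, 5 were at least 1.5-fold higher (21.7% of all genes), 2 of them at least 2-fold (11.5%), and 0 were at least 1.5-fold lower (16.7%). Under spike-in centring 2 were at least 1.5-fold higher (12.1% of all genes), 0 at least 2-fold (7.52%), and 1, Eno3, was at least 1.5-fold lower (31.3%). Gapdh, often used as a loading reference, had 7 probes between 0.06 and 0.75 and a gene value of 0.66 (1.58-fold). Its lowest probe shares at least 25 bases with a probe named for a Gapdh-like gene, Gm5523; 3 of the 7 share such a run with another name. Pgk1, phosphoglycerate kinase, read 248257 in KO cells and 158589 in WT cells (0.65). Pgam1, the widely expressed phosphoglycerate mutase, was 0.56 higher, and its probe with 10 spots gave 0.55 with a standard error of 0.04 over spots. Pgam2, the muscle mutase, read 617.0 in KO cells and 301.3 in WT cells (1.03), and 0.66 with spike-in centring. The Pgam1 minus Pgam2 contrast was −0.47 (−0.78 to −0.37), so here the difference of the muscle form was the larger.

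The enolases differed from each other, with 1 probe each for Eno2 and Eno3. Eno1, the ubiquitous enolase, had probes at 0.58, 1.00 and 1.34, of which the lowest shares sequence with a probe of the related copy Eno1b; without that probe its value was 1.17. Eno2, the neuronal enolase, read 836.0 in KO cells and 705.6 in WT cells, a difference of 0.24 (−0.13 with spike-in centring). Eno3, the muscle enolase, read 4444 in KO cells and 5861 in WT cells, a difference of −0.40 that stayed negative in all settings. The Eno1 minus Eno3 contrast was 1.40 (0.98 to 1.74) and the Eno1 minus Eno2 contrast was 0.76 (0.34 to 1.1). Pkm, pyruvate kinase, had 4 probes at 0.39, 0.71, 0.88 and 1.29, giving 0.80 (1.74-fold). The probes were not assigned here to its M1 and M2 splice forms.

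Both lactate dehydrogenase subunits and the exporter Slc16a3 were higher under every scaling, and Slc16a1 was not. Ldhb, the heart-type subunit, read 14539 in KO cells and 2896 in WT cells with the probe printed above, and 100602 against 27946 with a second probe, a gene value of 2.09 (4.25-fold). Ldha, the muscle-type subunit, read 9180 in KO cells and 4587 in WT cells near the 5′ end, and 118009 against 90197 near the 3′ end (0.69, 1.62-fold). The Ldha minus Ldhb contrast was −1.39 and had the narrow range of −1.46 to −1.33 over settings. Slc16a3, the lactate exporter MCT4, read 23168 in KO cells and 8557 in WT cells (1.44, 2.71-fold). Slc16a1, the carrier MCT1, read 11915 in KO cells and 9309 in WT cells, a difference of 0.36 (−0.02 with spike-in centring). The contrast of Slc16a3 minus Slc16a1 was 1.08 (0.84 to 1.08).

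**Figure D3:**
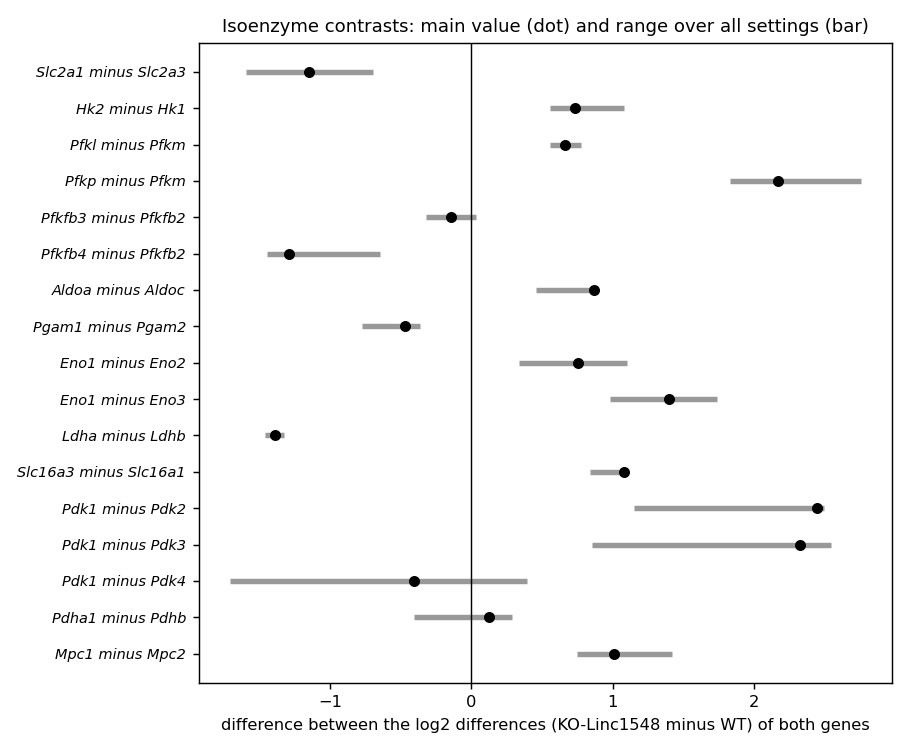
Difference between the log2 differences of paired isoenzymes. Dots are the values given in the text and bars span all settings of the processing. The contrasts of Pfkp with Pfkm and of Pdk1 with Pdk2 and Pdk3 are the largest, and the bars for Pfkfb3 with Pfkfb2, Pdk1 with Pdk4 and Pdha1 with Pdhb cross 0.

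The kinases that inactivate pyruvate dehydrogenase included the largest differences of the 37 genes in the main setting, Pdk4 and Pdk1. Pfkp exceeded Pdk1 with the mean of probes (2.57 against 2.37) and both with the probe nearest the 5′ end (3.08, against 3.00 for Pdk4 and 1.29 for Pdk1). Pdk4, the kinase induced by fasting and fatty acids in adult tissues, read 429.4 in KO cells and 53.5 in WT cells (chr6:5433441-5433500, mm9), a difference of 3.00 (8.03-fold). Its WT signal is not far above the lowest signal called well above background on that array (21.3), and normexp correction gave 2.10. Pdk1, a known target of hypoxia-inducible factor, had 5 probes and a gene value of 2.59 (6.04-fold). The brightest read 43890 in KO cells and 7055 in WT cells, and the probe printed above read 1715 in KO cells and 246.9 in WT cells. In 4 probes the difference lay between 2.52 and 2.80, and in the probe nearest the 5′ end, which read 333.1 in KO cells and 136.2 in WT cells, it was 1.29. Pdk1 was the one member whose measured probes spanned more than 1 on the log2 scale.

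The other kinases were close to equal. Pdk2 read 247.6 in KO cells and 224.8 in WT cells (0.14), and Pdk3 had probes at 0.09 and 0.43; both gene values turned negative with spike-in centring (−0.24 for Pdk2 and −0.12 for Pdk3). The Pdk1 contrasts were 2.45 with Pdk2 (1.15 to 2.5) and 2.33 with Pdk3 (0.86 to 2.55), and the lower ends come from taking the 5′ probe of Pdk1 alone. Pdk1 and Pdk4 had no settled order (−0.41, from −1.71 to 0.39).

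Differences in the complex that these kinases act on were small. Pdha1, its catalytic alpha subunit, read 13849 in KO cells and 13075 in WT cells with its bright probe (0.08). Dlat, the acetyltransferase core, had probes at 0.09 and −0.02, and Pdhb, the beta subunit, had probes from −0.02 to 0.49. Pdp1, the phosphatase that reactivates the complex, had both probes below 0 (−0.32 and −0.21) and a gene value of −0.26, negative in all settings. None of these 4 genes reached 1.5-fold in the main setting, where 21.7% of all genes were higher and 16.7% lower past that limit. With spike-in centring 1 of them, Pdp1, did (−0.64), where 31.3% of all genes were at least 1.5-fold lower. The subunits of the mitochondrial pyruvate carrier differed from each other. Mpc1 had 3 probes between 0.52 and 0.87 (gene value 0.73, 1.66-fold). Mpc2 read 2380 in KO cells and 3842 in WT cells with its intron-spanning probe (−0.69), and 101.9 against 93.4 with a dim probe (0.13). The Mpc2 gene value was −0.28, and its sign turned with the probe nearest the 5′ end, which is the dim one. The Mpc1 minus Mpc2 contrast was 1.01 (0.75 to 1.42).

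Of the 17 contrasts that could be computed, 9 were at least 1 in size, 14 kept their sign in all settings, and 15 had probe values that did not overlap between the genes. In 12 of these 15 at least 1 gene has a single measured probe and so no spread, and 3 (Ldha with Ldhb, Pdk1 with Pdk3, Mpc1 with Mpc2) have several probes in both genes. These counts describe 2 arrays, and the error between cultures is not known.

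The differences also varied with the place of the probe. In 7 of 11 transcripts with measured probes at least 500 bases apart, the difference was smaller at the 3′ probe than at the 5′ probe (median −0.11). Over all 3474 such transcripts this held for 69.5%, with a median of −0.17. The largest drops were in Slc2a3 (−0.91), Ldha (−0.61) and Eno1 (−0.42), and Pdk1 went the other way (1.35). In all of these genes the 3′ probe was also the brighter one. On the KO array it read 84937 against 2308 in Slc2a3 and 43890 against 333.1 in Pdk1. Of the member probes, 6 read at least 100000 on both arrays. The parts of place and brightness were not tested. With the probe nearest the 3′ end of each gene, the median of the 37 genes was 0.39, beside 0.07 for all genes.

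**Figure D4:**
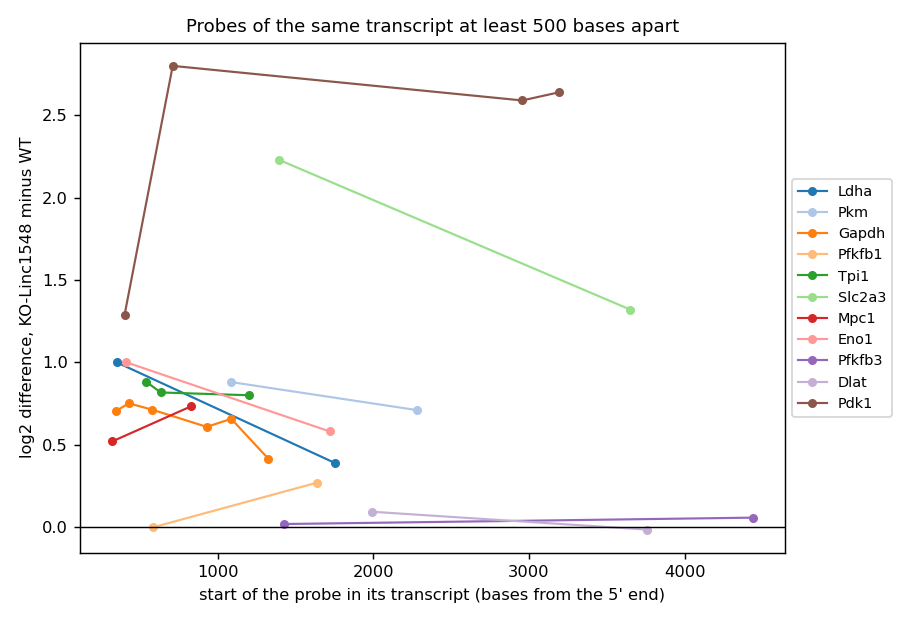
Log2 difference of KO-Linc1548 minus WT against the start of the probe in its transcript, in bases from the 5′ end, for the 11 transcripts with measured probes at least 500 bases apart. Lines join probes of the same transcript. Slc2a3, Ldha, Eno1 and Gapdh slope down toward the 3′ end, and Pdk1 is low at its first probe only.

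The same arrays differed in markers of cell state, from lists chosen with earlier results of these data known. Of all measured genes, 11.5% were at least 2-fold higher in KO cells and 8.8% at least 2-fold lower. All 10 pluripotency markers were at least 2-fold higher in KO cells, with summed signals of 126678 in KO cells and 12160 in WT cells. All 6 epiblast markers were at least 2-fold higher as well (158178 in KO cells and 38597 in WT cells), and all 6 neural progenitor markers were at least 2-fold lower (7630 in KO cells and 105427 in WT cells). Of 4 neuron markers 3 were at least 2-fold lower, while the summed signals were 48667 in KO cells and 43382 in WT cells. Stmn2 made up most of that sum (46306 in KO cells and 31658 in WT cells), and the other 3 summed to 2361 in KO cells and 11725 in WT cells. Of 4 endoderm markers 1 was at least 2-fold higher (1651 in KO cells and 1312 in WT cells), and of 4 fibroblast and mesoderm markers 2 were at least 2-fold lower (840 in KO cells and 1283 in WT cells). Every listed marker was measured on both arrays. The part of cell state in the glycolytic differences was not tested. In RNA from whole cultures, fewer cells of a type and less RNA per cell cannot be told apart.

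Other genes of sugar metabolism lay on both sides of equality. Of 42 further genes of glycolysis, gluconeogenesis, the pentose phosphate pathway and linked metabolism, 34 had a measured value and their median was 0.21. Past the 2-fold limit lay 3 that were higher (11.5% of all genes) and 2 that were lower (8.8%), and a difference from the genes above was not tested. Ldhc, the testis lactate dehydrogenase, was 3.37-fold higher with 3 probes between 1.60 and 1.82. Fbp1, a gluconeogenic phosphatase, was 2.61-fold higher, and Me1, the cytosolic malic enzyme, 2.29-fold higher. Hk3, a hexokinase of blood cells, was lower at a low signal (40.7 in KO cells and 100.5 in WT cells). Under spike-in centring the median of the 34 turned to −0.17, beside −0.27 for all genes. Past the 2-fold limit 2 were then higher (7.52% of all genes) and 3 lower (15.7%).

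Hypoxia-inducible factor genes and further targets were higher in part. All 21 genes of this list had a value, with a median of 0.65 (0.27 under spike-in centring). Past the 2-fold limit lay 6 that were higher and 0 that were lower in both of these settings, where all genes gave 11.5% and 8.8%, and 7.52% and 15.7% under spike-in centring. At 1.5-fold 12 were higher (21.7% of all genes) and 2 were lower (16.7%). Under spike-in centring 6 were higher at 1.5-fold (12.1% of all genes) and the same 2 were lower (31.3%). Those 2, named after their values were seen, act in oxygen sensing: Vhl read 3194 in KO cells and 4824 in WT cells, and Egln1 read 4016 in KO cells and 6161 in WT cells. Ndrg1, a stress-responsive gene, read 4237 in KO cells and 988.3 in WT cells (4.29-fold). Ankrd37 (3.08-fold), Egln3, an oxygen-sensing prolyl hydroxylase (3.01-fold), Bhlhe40, a transcriptional repressor (2.90-fold), Adm, a peptide hormone (2.77-fold), and Bnip3, a mitophagy receptor (2.74-fold), were the others. Hif1a itself, named after its values were seen, had probes that disagreed, at −0.31 and 1.60. Vegfa, also named after its values were seen, had 4 probes from −1.17 to 0.69.

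The core of the binding site of hypoxia-inducible factor, ACGTG or GCGTG on either strand, was looked for in the 250 bases before the transcript starts that RefSeq gives on GRCm38.p6. Starts were found for 36 of the 38 genes, with 57 windows, some of which overlap. A match was present in 70.2% of these windows, and in 38.6% of all 32851 windows. The windows of the 38 genes were also richer in G and C (median 60.4%, against 52.4%) and in CG dinucleotides (median 13, against 6), which both motifs contain, and the part of base composition was not tested. Among windows of genes at least 2-fold higher 10 of 13, from 8 genes, held a match. Among those of the other genes 30 of 44, from 28 genes, did. ACGTG was in 23.1% of the windows of the higher genes and 36.4% of the others, and GCGTG in 53.8% and 50%. The first window of Pdk1, of its 2, and those of Pfkp and Slc16a3, which were higher, and of Pfkfb4, which was lower, are printed 5′ to 3′ with the matches in capitals. They are chr2:71872974-71873223 (plus strand), chr13:6648772-6649021 (minus strand), chr11:120948817-120949066 (plus strand) and chr9:108991652-108991901 (plus strand).
Pdk1: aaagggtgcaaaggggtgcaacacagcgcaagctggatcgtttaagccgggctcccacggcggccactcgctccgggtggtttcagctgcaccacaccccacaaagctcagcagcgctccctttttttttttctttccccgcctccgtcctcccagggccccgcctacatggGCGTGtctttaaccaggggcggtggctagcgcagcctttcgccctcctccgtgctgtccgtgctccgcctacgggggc
Pfkp: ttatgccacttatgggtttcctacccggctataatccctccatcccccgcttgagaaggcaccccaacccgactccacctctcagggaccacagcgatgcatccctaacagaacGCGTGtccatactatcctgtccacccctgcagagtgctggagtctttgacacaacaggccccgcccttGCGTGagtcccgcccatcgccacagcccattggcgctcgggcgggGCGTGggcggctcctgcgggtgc
Slc16a3: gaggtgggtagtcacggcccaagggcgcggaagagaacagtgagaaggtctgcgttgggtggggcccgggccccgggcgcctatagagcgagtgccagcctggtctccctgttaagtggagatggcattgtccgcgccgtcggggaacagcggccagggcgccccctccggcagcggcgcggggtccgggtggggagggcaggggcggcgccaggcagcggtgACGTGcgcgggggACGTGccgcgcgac
Pfkfb4: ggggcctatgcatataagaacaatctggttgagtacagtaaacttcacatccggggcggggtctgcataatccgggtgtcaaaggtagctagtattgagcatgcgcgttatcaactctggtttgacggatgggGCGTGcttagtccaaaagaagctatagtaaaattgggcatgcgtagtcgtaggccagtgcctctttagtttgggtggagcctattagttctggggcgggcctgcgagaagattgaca
Pfkp has 3 matches, Slc16a3 has 2, and Pdk1 and Pfkfb4 have 1 each, so a match stands before genes of both directions. The second window of Pdk1, not printed, has 0 matches, and so has that of Pgam2, which was also higher. A match is a string of letters and not evidence of binding.

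**Figure D5:**
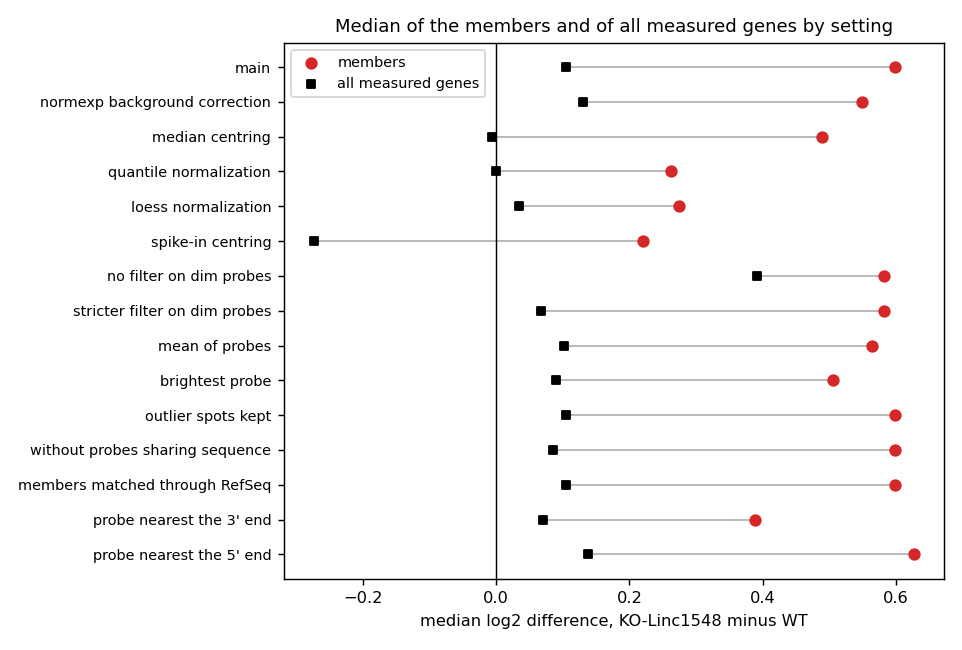
Median log2 difference of KO-Linc1548 minus WT over the measured genes described here (red circles; 37, or 36 with the stricter filter and 38 with none) and over all measured genes (black squares) in each setting of the processing. The red circle lies to the right of the black square in every row, from 0.22 with spike-in centring to 0.63 with the probe nearest the 5′ end.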

How the data were processed

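Each sample was read on a 1-colour Agilent array. Per the file headers, the authors' files are output of Agilent Feature Extraction 10.7.1.1, and the deposited intensity (processed signal) was spatially and multiplicatively detrended within the array with background correction off, and was not normalized between arrays. Both arrays come from 1 slide and 1 scan, so array position and culture cannot be told apart from genotype. The labels' extraction protocol speaks of tissue ground in liquid nitrogen, while both samples are labelled as cells in culture. Probe positions are on mm9.

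Here, outlier spots were left out (155 on the KO array and 173 on the WT array), replicate spots were combined as the mean of their log2 signals, and each array was centred on the 75th percentile of its non-control probes (652 for KO and 864 for WT). Replicate spots of 298 probes gave a pooled log2 SD of 0.07 (KO array) and 0.06 (WT array). A gene's value is the median over its measured probes, and 31536 probes were measured. No member probe was saturated. Names of other genes were updated through RefSeq tables of GRCm38.p6, by accession for 33898 probes, by symbol for 9462 and by synonym for 487; 8308 kept the design's name and 4450 lincRNA probes were left out of gene counts. The number of arrays limits the precision.

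The members, lists, isoenzyme pairs and limits were chosen with earlier results of these data known. Every member is named; genes of the other lists are named where at least 2-fold either way, except 1 that is not reported here. Normalization alternatives used limma 3.58.1 in R 4.3.3; other steps used Python 3.11.15. The steps were tested on simulated data. Alternatives covered background, scaling, filter, gene summary, outlier spots, shared sequence and naming; taking the probe nearest either end of a gene was added after seeing the data.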

Additional observations from a re-analysis of the deposited data

How the results depend on the processing

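The count of genes at least 2-fold higher, 9 in the main setting (11.5% of all genes), stayed within 1.5 times of 9 in all 14 other settings. It ranged from 6, as with spike-in centring (7.52% of all genes), to 12 with the probe nearest the 5′ end. The count at least 2-fold lower, 1 in the main setting (8.8% of all genes), was 0 with normexp and 0 without the filter on dim probes. The count at least 1.5-fold higher was 19 in the main setting (21.7% of all genes). It fell to 12 by quantile (18.6%), 12 by loess (19.8%) and 11 by spike-in scaling (12.1%). The count at least 1.5-fold lower, also 1 (16.7% of all genes), was 4 with spike-in centring (31.3%). It was 2 with the stricter filter on dim probes, with the brightest probe and with the probe nearest the 3′ end. Without the filter on dim probes it was 0. Shares of all genes past the 2-fold limit, or at least 1.5-fold lower, were computed only for the main setting and spike-in centring. The median of 0.60 was 0.49 with median centring, 0.26 by quantile, 0.27 by loess, 0.22 by spike-in scaling and 0.39 with the probe nearest the 3′ end; the shifts of the centrings follow from their construction and the cause of the others was not tested. Of 754 recomputed values of single genes and contrasts, 514 moved by less than the spot noise of a difference (0.0956), 240 moved by more, and 0 genes or contrasts of at least 1 in size changed sign. Part of this tally is fixed by construction. Naming through RefSeq changed 0 member names. Median and spike-in centring move every gene alike and leave contrasts unchanged. The 13 genes with 1 measured probe keep their value under every gene summary. No paired analysis was possible because each group has 1 array, and no replicate could be left out. The number of arrays, and a signal near background for Pdk4, Pfkfb4's second probe and Pklr, limit what can be said.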
